A study of Mus musculus with 8 samples.

Results

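The genes described here are 10 genes of phosphatidylcholine and phosphatidylethanolamine synthesis (Pemt, Pcyt1a, Pcyt2, Chka, Chkb, Chpt1, Cept1, Lpcat3, Etnk1 and Pisd). They were chosen by name, and each was read from its brightest probe set with exactly 1 gene symbol. Of the 10, 8 could be measured in this way, out of 22180 genes on the array that have such a probe set. Chkb, the second choline kinase, is listed only on probe sets shared with Cpt1b or Gm44502, and Cept1, a choline and ethanolamine phosphotransferase, only on 1 shared with Dram2, so no value is given for either. All 8 measured genes lay above the limit for dim probe sets on all 8 arrays and were tested among 13449 genes.

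The study asked how the E167K coding variant of Tm6sf2, carried as a knock-in, acts on liver metabolism. Liver RNA of knock-in and wild type mice, all male and of strain C57BL/6J as labelled, was hybridised to 1-colour whole-transcript arrays, 4 of each genotype, and the wild type mice are given as littermates. The labels disagree on diet: the note on each array gives either chow or a fat-free diet high in sucrose, over 14 weeks, and the text on the series a high-fat diet for 20 weeks, so no result is tied to a diet. The sources used here give neither age nor hour of collection, nor whether the knock-in was homozygous. They also do not say that each array was 1 animal (livers 1 to 4 below are the arrays by replicate number), so the p-values rest on the spread among these arrays, which may be technical. Values are log2 expression, a change is the knock-in mean minus the wild type mean on that scale, with its model standard error (SE), and adjusted p-values come from limma over all 13449 tested genes.

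Phosphatidylcholine and phosphatidylethanolamine are the main phospholipids of cell membranes and of the surface of very low density lipoprotein (VLDL). Choline and ethanolamine each enter a parallel route: a kinase adds phosphate, a cytidylyl transferase makes the CDP-linked form, and a phosphotransferase joins it to diacylglycerol. The liver has a further route, in which Pemt methylates phosphatidylethanolamine to phosphatidylcholine, and mitochondria make phosphatidylethanolamine from phosphatidylserine. Shortage of phosphatidylcholine is known to hinder VLDL secretion and to favour fat storage in the liver. Tm6sf2 sits in membranes of the secretory pathway and takes part in the lipid loading of VLDL.

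The arrays were alike in scale, with medians of 3.73 to 3.80 over all probe sets. Tm6sf2 averaged 9.66 ± 0.27 in knock-in and 9.72 ± 0.22 in wild type livers (SD, n = 4 each; change -0.06, SE 0.16, limma adjusted p = 0.928; exact permutation p = 0.686), and since the variant is a coding change this does not check the labels. Over all tested genes, 9 (0.0669%) passed an adjusted p of 0.05, 3 higher (0.0223%) and 6 lower (0.0446%) in the knock-in. Hepatocyte markers were high in both groups: the mean of 10 of them was 12.90 to 12.92 on knock-in and 12.89 to 12.90 on wild type arrays, and their changes ran from -0.02 to 0.04. Lists of 7 other liver and blood cell types held 33 tested markers, and the neutrophil list had 0 tested. Of the 33, 0 passed the adjusted test and 3 had an unadjusted p under 0.05 by limma, beside 11.3% of all tested genes. Lyve1 of sinusoidal endothelium and Jchain of plasma cells were higher in the knock-in, and Hhip of stellate cells was lower. The lists of these 3 genes were mixed. Endothelial markers had 3 higher and 4 lower, stellate markers 3 higher and 4 lower, and B and plasma cell markers 3 higher and 2 lower. In whole liver, fewer cells of a type and less RNA per cell cannot be told apart.

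Of the 8 measured synthesis genes, 0 passed the adjusted test, beside 0.0669% of all tested genes (0.0223% higher and 0.0446% lower). By sign alone, 4 were higher and 4 lower in the knock-in. Their median change was 0.03, against 0.0046 over all tested genes, and the median of the absolute change was 0.13, against 0.12. Chka alone had an unadjusted p under 0.05 by limma, which is 1 of 8 genes (12.5%) beside 11.3% of all tested genes, so the share is near the background. By direction, the background was 6.01% higher and 5.29% lower. The knock-in and wild type arrays did not overlap for 2 of the 8, Chka and Pemt, beside 7.16% of all tested genes (3.96% with all knock-in arrays above and 3.2% with all below). Apart from Chka, changes lay between -0.15 and 0.14.

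**Figure D1:**
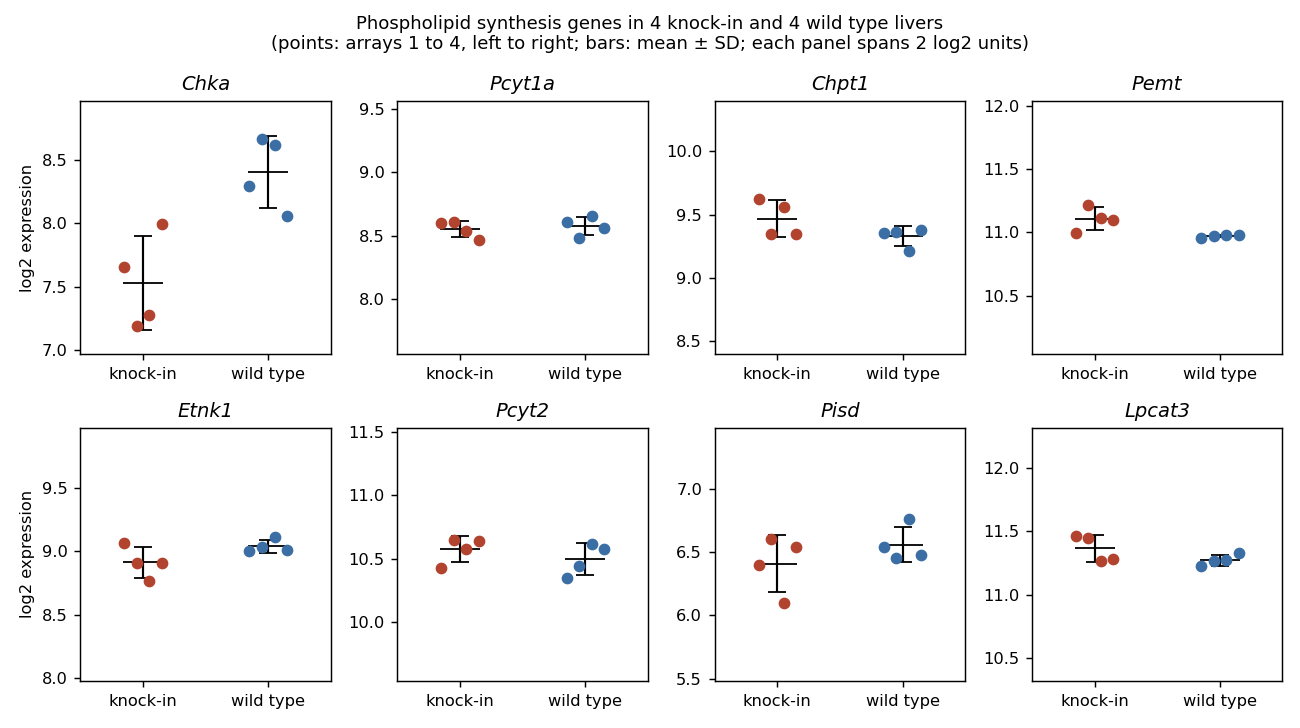
Log2 expression of the 8 measured synthesis genes, knock-in livers left (red) and wild type livers right (blue), with 1 point per array and the mean ± SD of 4 arrays. Each panel spans the same height on the log2 scale. Chka is spread widest, with knock-in arrays at 7.19 to 7.99 and wild type arrays at 8.06 to 8.66, and the other genes lie close together in both groups.

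The promoters of 2 genes are shown, that of Chka because it has the largest difference of the 8 genes, and that of Pcyt1a because it carries a sterol response element while Srebf1, which codes for a factor that binds such elements, had a higher mean in the knock-in. Sequences are the 250 bases before a RefSeq start of each gene (GRCm38.p6, plus strand in both), Chka at chr19:3851523-3851772 and Pcyt1a at chr16:32430671-32430920, the most upstream of its 3 starts. Capitals mark CCAAT boxes in Chka and the match to TCACNCCAC in Pcyt1a.
Chka: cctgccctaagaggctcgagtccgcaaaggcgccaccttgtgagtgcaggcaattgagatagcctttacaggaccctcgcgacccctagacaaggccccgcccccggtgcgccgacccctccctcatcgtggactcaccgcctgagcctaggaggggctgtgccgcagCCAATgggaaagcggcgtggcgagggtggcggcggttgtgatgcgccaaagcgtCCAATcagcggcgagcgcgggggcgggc
Pcyt1a: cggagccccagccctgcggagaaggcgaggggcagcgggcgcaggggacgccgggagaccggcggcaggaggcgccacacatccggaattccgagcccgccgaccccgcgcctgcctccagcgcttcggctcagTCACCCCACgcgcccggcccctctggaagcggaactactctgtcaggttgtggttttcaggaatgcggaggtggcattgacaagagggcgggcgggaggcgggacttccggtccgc

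Motifs of 5 kinds were searched on both strands of the 250 bases before 32851 RefSeq starts, of which 15 belong to 9 of the 10 genes (not Pcyt2). The sterol response element TCACNCCAC stood 116 bases before the first Pcyt1a start, and again in the window of a second start of that gene, which overlaps the first window. It was found for no other of the 9 genes searched and in 1.05% of all windows. Of clock motifs, only the E-box CACGTG (6.02% of all windows) and the D-box TTATGNAA (3.07%) were searched. They matched 0 of the 15 windows, Chka's included, which leaves other clock motifs unexamined. CCAAT boxes stood 82 and 28 bases before the Chka start, and 6 of the 15 windows, of Chka, Chkb, Chpt1, Lpcat3, Pemt and Pisd, held at least 1, against 33.8% of all windows. The annotated span of Chka begins at position 3851585, inside this window, so both boxes lie within that span, ahead of the start used here. GC boxes, GGGCGG, lay in 9 of the 15 windows, which belong to 7 of the genes, against 32.7% of all windows. In the 2 windows printed, the capitals overlap no other motif searched. A match describes letters only.

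Choline kinase alpha, Chka (chr19:3851585-3894369, in GRCm38.p6 as all gene positions here, and covering the whole gene), catalyses the first step of the CDP-choline route. Its values were 7.65, 7.19, 7.28 and 7.99 in knock-in livers 1 to 4, against 8.29, 8.66, 8.61 and 8.06 in wild type livers 1 to 4. All knock-in livers lay below all wild type livers, but knock-in liver 4 and wild type liver 4 were only just apart. The means were 7.53 ± 0.37 in the knock-in and 8.41 ± 0.29 in wild type (SD, n = 4 each), a change of -0.88 (SE 0.20, 95% interval -1.34 to -0.42; limma unadjusted p = 0.00189, adjusted p = 0.169). On the linear scale this is a knock-in to wild type ratio of 0.544 (interval 0.396 to 0.747). The exact two-sided permutation test gave p = 0.0286, the smallest that 4 against 4 arrays allow. By absolute change, 99.1% of tested genes had a smaller difference than Chka, yet it did not pass over all genes. A second Chka probe set was dim, at 2.33 to 2.70 in knock-in and 2.27 to 3.54 in wild type livers, and with the mean of both the change was -0.65.

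Chka varied along with the clock genes from array to array. Of 9 tested clock outputs and repressors, 8 were higher in the knock-in and 7 had an unadjusted p under 0.05 by limma. All 3 activators were lower with such a p, while 0 of the 12 passed the adjusted test. Over all tested genes, 11.3% had such a p (6.01% higher and 5.29% lower) and 0.0669% passed. The clock lists were written with earlier results of these data known. A clock score, the mean of 9 clock outputs and repressors minus the mean of the activators Arntl, Npas2 and Clock, was 0.55, 1.59, 1.51 and -0.10 in knock-in livers 1 to 4, against -1.18, -1.49, -0.91 and 0.16 in wild type livers 1 to 4. Knock-in liver 4, with the lowest score of its group, had the highest Chka of its group, and wild type liver 4, with the highest score, had the lowest. With the genotype means taken out, Chka and the score correlated at r = -0.92 over 8 arrays (exact permutation within genotype, p = 0.00868) and at rho = -0.93 (exact permutation p = 0.00868). Adjusted over the 8 genes examined, both p-values were 0.0694 by the exact permutation test. Without the 2 arrays farthest from the median score of all 8, knock-in 2 and wild type 2, r was -0.89. Both livers numbered 4 were kept in it, so this value does not show how far r rests on them. For the other 7 genes, r over 8 arrays ran from -0.38 to 0.46, with adjusted exact permutation p-values of 0.646 or more.

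With the clock score as a covariate, the Chka change was -0.19 (SE 0.18, limma unadjusted p = 0.316, adjusted p = 0.931). The score itself differed between the genotypes, so this fit also takes away any part of a genotype difference that runs along the score. The part of the clock in the Chka difference was not tested beyond these values. Without any one array, the Chka change ran from -1.03 to -0.77.

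**Figure D2:**
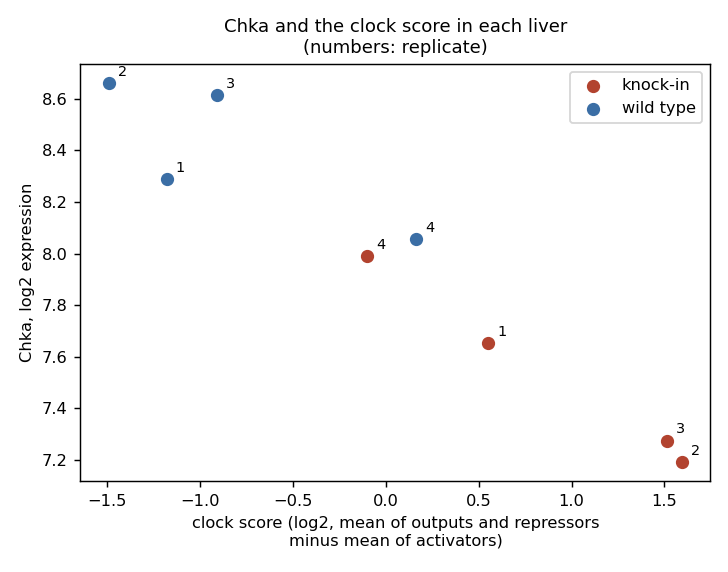
Log2 expression of Chka (vertical axis) against the clock score (horizontal axis, difference of 2 means on the log2 scale) for each knock-in (red) and wild type (blue) liver, numbered by replicate. Among knock-in livers Chka falls at each step up in score. Among wild type livers it is lowest in liver 4, which has the highest score, but liver 3 exceeds liver 1 in both score and Chka. Knock-in liver 4 and wild type liver 4 lie next to each other, at 7.99 and 8.06.

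The following steps of the CDP-choline route showed no such difference. Pcyt1a (chr16:32430921-32475065) codes for the cytidylyl transferase that sets the pace of the route. It measured 8.60, 8.61, 8.54 and 8.46 in knock-in livers 1 to 4, against 8.61, 8.48, 8.65 and 8.56 in wild type livers 1 to 4, so the groups overlapped almost fully. Its change of -0.02 (SE 0.08, 95% interval -0.20 to 0.16, limma adjusted p = 0.946) turned to 0.0045 without knock-in replicate 4 and to 0.00061 without wild type replicate 3. On the linear scale the interval is a ratio of 0.868 to 1.11. Pcyt1b, the second isoform, was dim on all 8 arrays, at 1.86 to 2.49 in knock-in and 2.16 to 2.78 in wild type livers, and was not tested.

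Chpt1 (chr10:88469513-88503970), the choline phosphotransferase that completes the route, was at 9.62, 9.34, 9.56 and 9.35 in knock-in livers 1 to 4, against 9.36, 9.37, 9.21 and 9.38 in wild type livers 1 to 4. Knock-in livers 1 and 3 lay above all wild type livers, and the other 2 lay within their range. This amounted to 0.14 (SE 0.10, 95% interval -0.08 to 0.36, limma adjusted p = 0.638), and 0.09 without knock-in replicate 1. Ctps, the CTP synthase that supplies both routes with CTP, was at 6.31 ± 0.19 in knock-in and 5.97 ± 0.09 in wild type livers (SD, n = 4 each), higher by 0.33 (SE 0.11, limma adjusted p = 0.314) with no overlap. Its isoform Ctps2 was at -0.22 (SE 0.14, limma adjusted p = 0.608), at -0.11 without wild type replicate 4 and at -0.33 without wild type replicate 3.

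Pemt (chr11:59970614-60046561), the liver's methyltransferase, measured 10.99, 11.22, 11.11 and 11.10 in knock-in livers 1 to 4, against 10.95, 10.97, 10.98 and 10.98 in wild type livers 1 to 4. All knock-in livers lay above all wild type livers, and the wild type livers were nearly equal, with an SD of 0.01 against 0.09 in the knock-in. The difference was small, 0.14 (SE 0.08, 95% interval -0.04 to 0.31; limma unadjusted p = 0.115, adjusted p = 0.556), although the exact permutation p was 0.0286, the smallest possible. As a ratio the interval is 0.972 to 1.24. With a prior that depends on the mean, the limma unadjusted p was 0.0401 and the adjusted p = 0.383. With the clock score as a covariate, the change was 0.07.

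Of 10 tested genes of the methyl donor cycle, which supplies Pemt with methyl groups, 8 were higher and 2 lower in the knock-in. Over all tested genes, 6877 were higher and 6572 lower. The median change of the 10 was 0.12, against 0.0046 over all tested genes, whose median absolute change was also 0.12. Of the 10, 1 (Mtr) had an unadjusted p under 0.05 by limma, beside 11.3% of all tested genes, and 0 passed over all genes. Mat1a, which makes S-adenosylmethionine in the liver, was at 13.39 ± 0.04 in knock-in and 13.40 ± 0.06 in wild type livers (SD, n = 4 each), near the top of the array's scale. Its change of -0.01 (SE 0.07) turned to 0.03 with the clock score as a covariate. Ahcy, which clears the product of methylation, was at 0.05 (SE 0.12) and turned to -0.03 with the mean of probe sets. Gnmt, which uses methyl groups in competition with Pemt, was higher by 0.17 (SE 0.09, limma adjusted p = 0.507), and Mtr, which regenerates methionine, by 0.43 (SE 0.17, limma adjusted p = 0.377), both with no overlap of groups. Without wild type replicate 3, the lowest array for Mtr, that gene was at 0.25.

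The ethanolamine route starts with Etnk1 (chr6:143166866-143208546), ethanolamine kinase, which measured 9.07, 8.91, 8.77 and 8.91 in knock-in livers 1 to 4, against 9.004, 9.04, 9.11 and 9.01 in wild type livers 1 to 4. Knock-in livers 2, 3 and 4 lay below all wild type livers, and knock-in liver 1 lay among them. Etnk1 differed by -0.13 (SE 0.09, 95% interval -0.32 to 0.07, limma adjusted p = 0.643; exact permutation p = 0.114), and by -0.08 without knock-in replicate 3. Pcyt2 (chr11:120610062-120617947), the ethanolamine cytidylyl transferase, followed at 10.43, 10.64, 10.58 and 10.64 in knock-in livers 1 to 4, against 10.34, 10.44, 10.62 and 10.58 in wild type livers 1 to 4. These groups overlapped, and Pcyt2 differed by 0.08 (SE 0.10, 95% interval -0.14 to 0.29, limma adjusted p = 0.820), which turned to -0.02 with the clock score as a covariate. Leaving out knock-in replicate 1 gave 0.13, wild type replicate 3 0.12 and wild type replicate 1 0.03.

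Selenoi, the ethanolamine phosphotransferase at the end of that route, was at 9.61, 9.60, 9.53 and 9.84 in knock-in livers 1 to 4, against 10.004, 10.09, 10.12 and 9.82 in wild type livers 1 to 4. As with Chka, knock-in liver 4 was the highest and wild type liver 4 the lowest of its group, and here they overlapped. The change was -0.36 (SE 0.10, limma unadjusted p = 0.00693, adjusted p = 0.258), and -0.10 with the clock score as a covariate.

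Pisd (chr5:32736301-32785642), the mitochondrial decarboxylase that turns phosphatidylserine into phosphatidylethanolamine, measured 6.40, 6.61, 6.09 and 6.54 in knock-in livers 1 to 4, against 6.54, 6.45, 6.76 and 6.48 in wild type livers 1 to 4. The groups overlapped, and Pisd differed by -0.15 (SE 0.13, 95% interval -0.44 to 0.14, limma adjusted p = 0.721). Without knock-in replicate 3, the lowest array, Pisd was at -0.04, and without wild type replicate 3, the highest, at -0.08. The mouse genome holds pseudogene copies of Pisd, so its value may carry signal of those copies. Ptdss2, which makes the phosphatidylserine, was at 6.92, 7.17, 6.97 and 6.66 in knock-in livers 1 to 4, against 6.41, 6.53, 6.42 and 6.68 in wild type livers 1 to 4, higher by 0.42 (SE 0.12, limma adjusted p = 0.259). Only the livers numbered 4 overlapped, and the change was 0.09 with the clock score as a covariate. Ptdss1, the partner enzyme, was higher by 0.16 (SE 0.08, limma adjusted p = 0.504). Prelid1, which carries phospholipid between the mitochondrial membranes, was at 11.21 ± 0.09 in knock-in and 10.93 ± 0.11 in wild type livers (SD, n = 4 each), higher by 0.28 (SE 0.09, limma adjusted p = 0.309) with no overlap.

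Lpcat3 (chr6:124663094-124704716), the acyltransferase that puts polyunsaturated chains into phosphatidylcholine and is needed for normal VLDL lipid loading in mice, measured 11.47, 11.44, 11.26 and 11.29 in knock-in livers 1 to 4, against 11.23, 11.26, 11.27 and 11.33 in wild type livers 1 to 4. Knock-in livers 1 and 2 were the highest of all, and the other 2 lay within the wild type range. Lpcat3 differed by 0.09 (SE 0.08, 95% interval -0.10 to 0.28, limma adjusted p = 0.734), a ratio of 0.936 to 1.21 over the interval, and by 0.06 without knock-in replicate 1. Its known inducer Nr1h3, the liver X receptor alpha, was at -0.09 (SE 0.09, limma adjusted p = 0.771), and at -0.03 without wild type replicate 3. Of 8 tested relatives that remodel acyl chains, 3 were higher and 5 lower, and 0 passed over all genes. Lpcat4 was at 4.32 ± 0.03 in knock-in and 4.65 ± 0.14 in wild type livers (SD, n = 4 each; change -0.34, SE 0.09, limma adjusted p = 0.219) and Lpgat1 at -0.20 (SE 0.07, limma adjusted p = 0.340), each with no overlap. Mboat7, a fatty liver risk gene that remodels phosphatidylinositol, was at 0.14 (SE 0.12, limma adjusted p = 0.730), and without single replicates at 0.08 (knock-in 1), 0.09 (knock-in 2 or wild type 2) and 0.23 (knock-in 3).

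**Figure D3:**
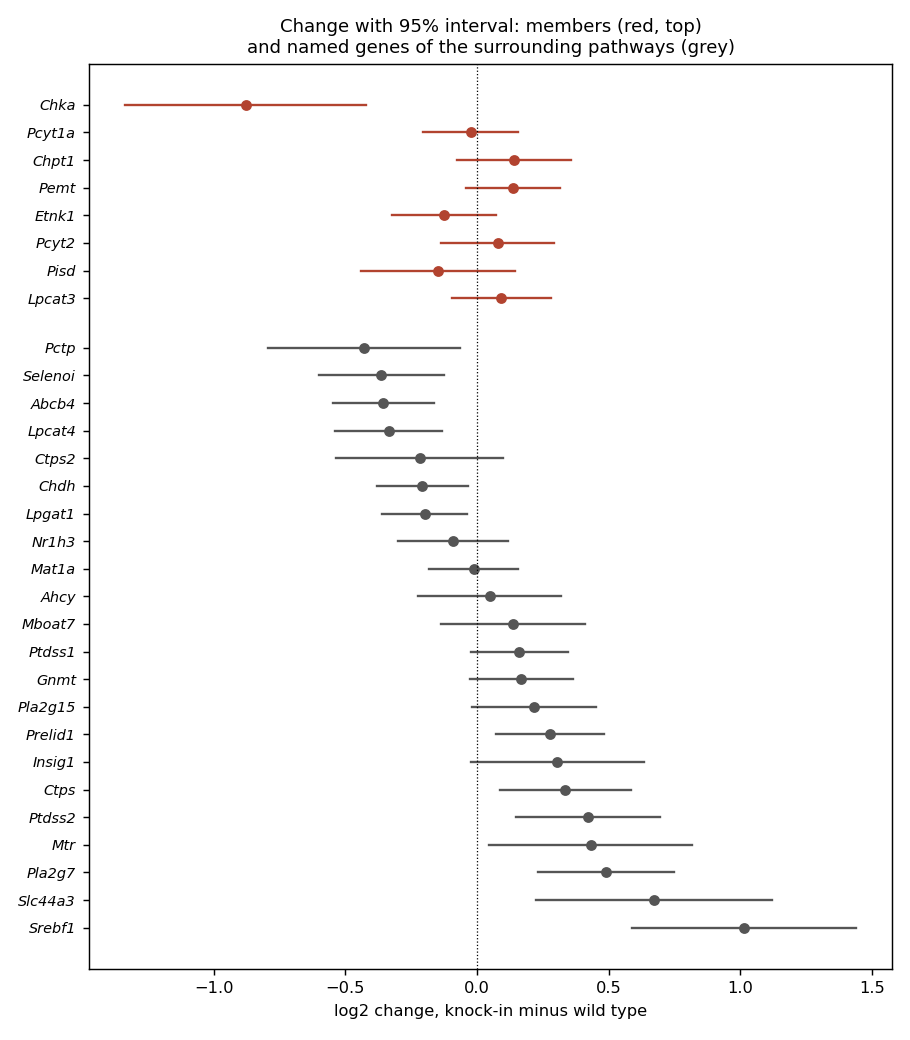
Log2 change, knock-in minus wild type, with its 95% interval from limma, for the 8 measured synthesis genes (red) and 22 named genes of the surrounding pathways (grey). Among the red genes, the interval of Chka alone lies apart from 0, from -1.34 to -0.42.

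Around the 10 genes, 8 lists of 88 genes on choline supply, methyl donors, the ethanolamine and serine branch, CTP, acyl remodelling, breakdown, transfer and transcriptional control had 74 tested members. Of these 41 were higher and 33 lower, with a median change of 0.0096 against 0.0046 over all tested genes, and 0 passed over all genes. An unadjusted p under 0.05 was found for 13 of them, 7 higher and 6 lower, which is 17.6% beside 11.3% of all tested genes. The groups did not overlap for 12, or 16.2% beside 7.16%. The 8 lists were written with earlier results of these data known, which may have shaped these shares. No test asked whether the shares differ.

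**Figure D4:**
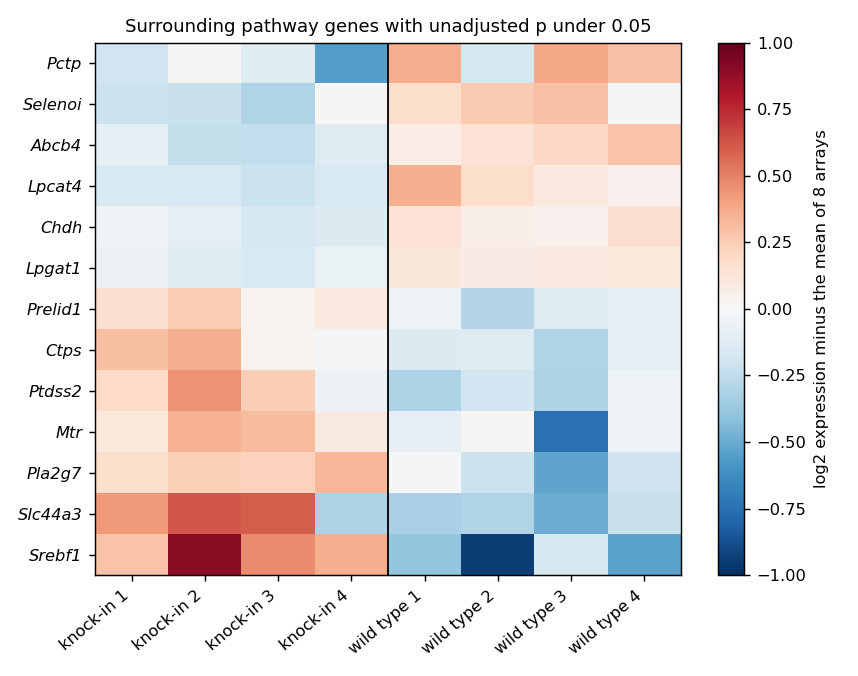
Log2 expression minus the mean of 8 arrays for the 13 surrounding genes with an unadjusted p under 0.05, in each knock-in (left) and wild type (right) liver. Srebf1 and Slc44a3 vary most, and in Slc44a3, Selenoi and Ptdss2 knock-in liver 4 lies within the wild type range.

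In choline supply, 5 of 9 tested genes were higher and 4 lower, and 0 passed over all genes. Slc44a3, a choline transporter-like protein, was at 7.60, 7.79, 7.77 and 6.86 in knock-in livers 1 to 4, against 6.84, 6.86, 6.67 and 6.95 in wild type livers 1 to 4. Knock-in livers 1 to 3 were high and liver 4 lay among the wild type values. The change was 0.67 (SE 0.20, limma adjusted p = 0.266). Without knock-in replicate 4, the array among the wild type values, it was 0.89 with limma adjusted p = 0.0394. In the other 17 of 18 alternatives the gene did not pass. With the clock score as a covariate the change was 0.14 (limma adjusted p = 0.980). Chdh, which oxidises choline to betaine and so takes it from phosphatidylcholine synthesis, was at 8.03 ± 0.06 in knock-in and 8.24 ± 0.06 in wild type livers (SD, n = 4 each), a change of -0.21 (SE 0.08, limma adjusted p = 0.346) with no overlap.

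Genes of phospholipid breakdown numbered 17 tested, 9 higher and 8 lower, and 0 passed over all genes. Pla2g7, which cleaves platelet-activating factor and oxidised phospholipids and is made largely by macrophages, was at 7.02 ± 0.06 in knock-in and 6.53 ± 0.21 in wild type livers (SD, n = 4 each; change 0.49, SE 0.11, limma adjusted p = 0.173). Kupffer cell markers, for comparison, had 4 of 7 tested members higher and 3 lower, with 0 at an unadjusted p under 0.05 by limma and array means of 8.01 to 8.72 in knock-in and 8.09 to 8.95 in wild type livers. The lysosomal phospholipase Pla2g15 was at 0.22 (SE 0.10, limma adjusted p = 0.469) and turned to -0.02 with the mean of probe sets.

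In transfer and export, 7 of 12 tested genes were higher and 5 lower, and 0 passed over all genes. Abcb4, which exports phosphatidylcholine into bile, was at 11.21, 11.07, 11.06 and 11.18 in knock-in livers 1 to 4, against 11.38, 11.45, 11.52 and 11.60 in wild type livers 1 to 4. All knock-in livers lay below all wild type livers (change -0.36, SE 0.08, limma adjusted p = 0.180). The change with the clock score as a covariate was also -0.36, with limma unadjusted p = 0.0419 and adjusted p = 0.751. With a mean-dependent prior, which raised the calls over all genes from 9 to 75, the limma adjusted p of Abcb4 was 0.0394. In 16 of the 18 alternatives it did not pass. Pctp, a carrier of phosphatidylcholine between membranes, was at 9.83 ± 0.24 in knock-in and 10.26 ± 0.26 in wild type livers (SD, n = 4 each; change -0.43, SE 0.16, limma adjusted p = 0.355), and at -0.83 with the clock score as a covariate (limma adjusted p = 0.607).

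Among 10 tested transcriptional regulators, 4 were higher and 6 lower, and 0 passed over all genes. Srebf1, which codes for SREBP-1, was at 8.17, 8.78, 8.36 and 8.25 in knock-in livers 1 to 4, against 7.50, 6.94, 7.72 and 7.35 in wild type livers 1 to 4. All knock-in livers lay above all wild type livers, with a change of 1.01 (SE 0.19, limma adjusted p = 0.111) that came to 0.69 in the fit with the clock score. It passed with a mean-dependent prior (limma adjusted p = 0.0291), and such priors raised the calls over all genes from 9 to 75 or 73. In 16 of the 18 alternatives Srebf1 did not pass, with limma adjusted p-values of up to 0.759. Pcyt1a, whose window carries the TCACNCCAC match printed above, was at -0.02 beside it. Insig1, which retains SREBP in the endoplasmic reticulum, was higher by 0.30 (SE 0.15, limma adjusted p = 0.470), by 0.18 without knock-in replicate 2, and turned to -0.07 with the clock score as a covariate.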

How the data were processed

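Liver RNA of knock-in and wild type mice, 4 arrays each, was measured on Affymetrix whole-transcript arrays from 400 ng of RNA, per the labels. The deposited table holds log2 expression per probe set, which the authors normalized with RMA, per the submitters' processing notes, which also name limma. Their versions, the build and the annotation were not given in the sources read. RMA makes the distributions of the arrays nearly equal, so values are relative within an array. Scanner files were not used here, so background correction could not be varied. Precision is limited by having 4 arrays a group.

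Of 41345 probe sets, 23521 have exactly 1 gene symbol, 1814 several and 16010 none. Symbols were checked by Entrez identifier against RefSeq (23328 matched, 193 did not, 0 changed). The brightest probe set per gene was kept, and genes entered the test where 4 or more of 8 arrays exceeded the 40th percentile of their array. Genotypes were compared in limma 3.58.1 under R 4.3.3 (two-sided, Benjamini-Hochberg), after a test on simulated data. Exact permutation tests used all 70 splits, or 576 permutations within genotype for correlations.

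The genes, lists and alternatives were chosen with earlier results of these data known. The correlations with the clock score were added after values were seen. The clock score uses 9 outputs and repressors (Ciart, Per1, Per3, Nr1d1, Nr1d2, Dbp, Tef, Hlf and Cry2), since Per2 has no probe set of its own. The genes named outside the 10 follow a rule: up to 6 per list with an unadjusted p under 0.05, at least 2 per list, and fixed relatives of the 10, of which Etnk2 has no single-symbol probe set. Clock genes and cell markers are named outside it.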

Additional observations from a re-analysis of the deposited data

Results flagged for a closer look

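Among 31 genes, the 4 arrays of each genotype were examined for a stray array, 62 groups in all, and 4 had a gap larger than Dixon's 95% critical value. Chance marks about 1 in 20 groups. Chpt1 in wild type replicate 3 was at 9.21, with the other wild type livers at 9.36 to 9.38. Mtr in wild type replicate 3 was at 5.83, with the others at 6.49 to 6.59, and without that replicate the Mtr change was 0.25. Lpcat4 in knock-in replicate 3 was at 4.27, with the others at 4.33, a narrow range. Pctp in wild type replicate 2 was at 9.87, with the others at 10.34 to 10.43.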

How the results depend on the processing

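Each of 18 alternatives was run on the 8 measured synthesis genes, and 0 of the 8 passed the adjusted test in any of them. Chka kept its direction in all 18 and an unadjusted p under 0.05 by limma in 17, the exception being the clock score as a covariate. Genes of the 8 with an unadjusted p under 0.05 numbered 1 in the reported fit, 2 (Chka and Pemt) with a trended or a trended and robust prior and 0 with the clock score. Over all genes, calls numbered 9 in the reported fit, 2 with no filter, 32 with the stricter one (60th percentile), 75 with a trended and 73 with a trended and robust prior, 25 with array weights, 24 with the mean of probe sets, 38 with each probe set as a feature, 1 with the clock score and 1 to 12 without single replicates. Genes with an unadjusted p under 0.05 numbered 1519, and 878 with the clock score. Same-numbered arrays did not deviate together (correlations of -0.105 to 0.101), so the numbers were not taken as pairs. With the replicate number as a block there were 2 calls, and Chka had limma adjusted p = 0.370. Leaving out 1 replicate moved Pcyt1a between -0.0564 and 0.0045, Tm6sf2 between -0.16 and 0.0644, Mat1a between -0.0286 and 0.0149 and Ahcy between -0.0423 and 0.12. Pcyt2 turned to -0.0188, Insig1 to -0.0677 and Mat1a to 0.0266 with the clock score, and Pla2g15 to -0.0178 and Ahcy to -0.0272 with the mean of probe sets. The causes were not tested.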

Other observations

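Taking the clock score as a covariate moved genes of the 2 CDP routes and of their surroundings by unequal amounts. Chka, Selenoi, Ptdss2 and Slc44a3 came near 0, at -0.19, -0.10, 0.09 and 0.14, against -0.88, -0.36, 0.42 and 0.67 without it. Chdh and Abcb4 were at -0.24 and -0.36 with the score, against -0.21 and -0.36 without it. With the score their limma unadjusted p-values were 0.107 and 0.0419, and the adjusted ones 0.848 and 0.751. Pctp was at -0.83 with it (limma unadjusted p = 0.00500, adjusted p = 0.607), against -0.43 without it. None of these differences between fits was tested.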
